A study of Homo sapiens with 27 samples.

Results

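The HEG1-CCM complex and the transcription factors KLF2 and KLF4 were followed through RNA-seq libraries of EA.hy926 cells, an endothelial line made by fusing human umbilical vein endothelial cells with the A549 lung carcinoma line. The 8 genes were CCM2L, CCM2, KRIT1, PDCD10, HEG1, MAP3K3, KLF2 and KLF4, taken by symbol from the 60604 gene entries used, and all 8 passed the filter on low counts. They were chosen by name with earlier results on these libraries known, so the p-values below describe them and are no independent evidence for the choice.

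The endothelial cells had been exposed for 48 h to adipose mesenchymal stromal cells (MSCs) of the immortalised line ASC52telo or to their products. The MSCs were either untreated, called young, or senescent, meaning treated with mitomycin C at 1.5 µg/mL for 18 h and then kept for 10 days. In direct co-culture both cell types grew together in equal numbers (MSC/MMC+ with senescent and MSC/MMC- with young MSCs). In the matrix groups the endothelial cells were seeded on extracellular matrix left after decellularisation (ECM/MMC+ and ECM/MMC-). In the medium groups MSC-conditioned medium was mixed in equal parts with endothelial medium (CM/MMC+ and CM/MMC-). The control group was EA.hy926 cells labelled as control, with no MSC exposure. Each group had 4 libraries except MSC/MMC+, which had 3, numbered 2 to 4, and every library carries the same sequencing run label. Replicates 2 to 4 of all 7 groups, 21 libraries, entered the comparisons, and the 6 libraries of replicate 1 are given apart. The labels do not say whether replicates were separate cultures, so each p-value reflects only library-to-library spread, possibly technical. Nor do they state if MSCs were removed from the co-cultured cells, and the extraction text names MSCs as the source of the RNA while the cell type field names endothelial cells.

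As background, HEG1 is a transmembrane receptor of endothelial cells whose cytoplasmic tail binds KRIT1, and KRIT1, CCM2 and PDCD10 form the complex whose loss causes cerebral cavernous malformations. CCM2 binds the kinase MEKK3, encoded by MAP3K3, and restrains it, and MEKK3 acts through MEK5 and ERK5 on MEF2 factors, which drive transcription of KLF2 and KLF4. CCM2L is an endothelial paralogue of CCM2 that also binds MEKK3, and KLF2 and KLF4 are the zinc finger factors that maintain the quiescent, anticoagulant state of endothelium under laminar flow.

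The promoters of KLF2 and KLF4 are shown because the cascade ends on these genes, and the MEF2 motif is the letter pattern through which it acts. The windows, from 250 bases before to 50 bases after the RefSeq start in GRCh38.p14, are chr19:16324576-16324875 on the plus strand for KLF2 and chr9:107489720-107490019 on the minus strand for KLF4; capitals mark a match to the MEF2 consensus.
KLF2: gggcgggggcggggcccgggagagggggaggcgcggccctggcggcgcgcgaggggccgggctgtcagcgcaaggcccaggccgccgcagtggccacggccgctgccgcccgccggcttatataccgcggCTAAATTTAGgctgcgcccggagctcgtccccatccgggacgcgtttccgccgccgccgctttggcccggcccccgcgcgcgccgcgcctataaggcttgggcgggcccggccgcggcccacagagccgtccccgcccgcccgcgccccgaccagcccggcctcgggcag
KLF4: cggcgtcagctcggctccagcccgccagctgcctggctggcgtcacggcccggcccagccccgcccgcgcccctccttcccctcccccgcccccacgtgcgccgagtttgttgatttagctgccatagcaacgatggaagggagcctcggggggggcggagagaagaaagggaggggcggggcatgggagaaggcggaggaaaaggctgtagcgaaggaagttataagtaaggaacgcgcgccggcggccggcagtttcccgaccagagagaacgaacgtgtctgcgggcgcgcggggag
The KLF2 window held 1 match, the capitals, beginning 120 bases before the start, and the KLF4 window held none; 2.99% of 35116 promoters of this length held such a match on either strand. That consensus was chosen after the sequences were seen. Neither window held CACCC (the KLF core, in 59.9% of promoters), TATTTAT (a MEF2 form, 4.93%), CGGAAGT (ETS, 6.83%), TGANTCA (AP-1, 7.71%) or TGACGT (CRE, 7.98%), searched on both strands. These are letter matches only, and the GENCODE 29 model of KLF4 reaches further upstream than the RefSeq start used here. Promoter windows were matched for 7 of the 8 genes.

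Depth and identity of the libraries set the frame for all values below. Gene-assigned counts per library ranged from 66320519 to 111512357. All 12 endothelial markers averaged at least 1 CPM (counts scaled to library size) in every group, and among 4 haematopoietic markers none reached that mean in replicates 2 to 4. The 5 replicate 1 libraries of the matrix, medium and control groups stood apart: their 13 stromal markers summed to between 5779 and 9980 CPM, against 33.8 to 80.9 CPM in replicates 2 to 4 of the same groups. The young co-culture replicate 1 also stood apart, with 27.6% of its counts on ribosomal protein genes and only 89.4 CPM of stromal markers. In the other co-culture libraries the stromal markers summed to 351 to 439 CPM with senescent MSCs and 174 to 236 CPM with young MSCs. The levels are CPM after TMM scaling over all 27 libraries, and a gene is called where edgeR's quasi-likelihood test gave a Benjamini-Hochberg adjusted p under 0.05 over all genes tested.

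CCM2L, the CCM2 paralogue, was the member that moved most, and it was highest in co-culture. Its gene lies at chr20:32010450-32032180 on the plus strand (ENSG00000101331.17). In senescent co-culture its level was 15.2, 16.8 and 10.0 CPM, in young co-culture 15.9, 14.7 and 14.4 CPM, and in control cells 3.57, 2.61 and 3.35 CPM. Every co-culture library was above every library of the other 5 groups. Senescent co-culture was 4.55-fold above control (log2 fold change 2.19 ± 0.20 SE, edgeR adjusted p 5.70e-05), and young co-culture was 4.85-fold above control (2.28 ± 0.20, adjusted p 8.76e-05). CCM2L was the 1 member of 8 called in each of these comparisons, where 8.05% of all genes tested were called with senescent and 9.68% with young MSCs.

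**Figure D1:**
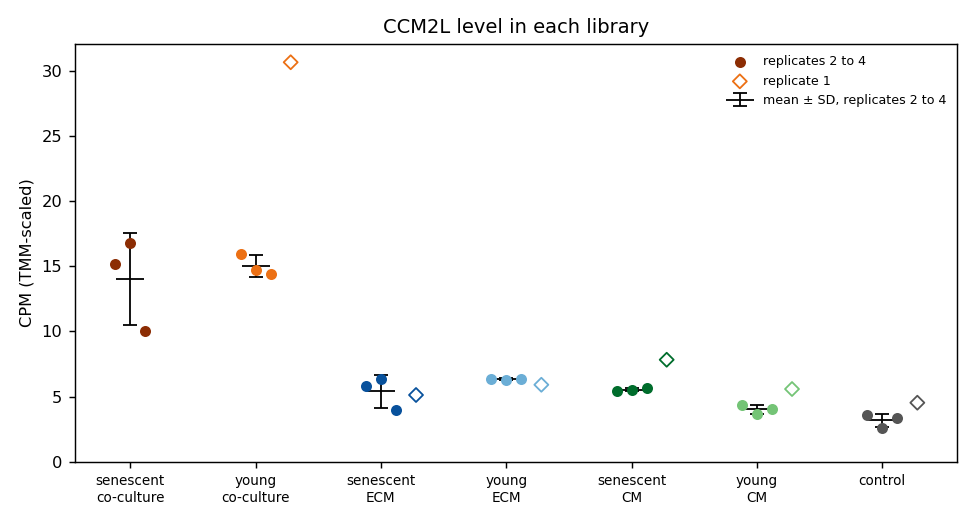
CCM2L level by library, in CPM after TMM scaling on the vertical axis, with the groups on the horizontal axis. Filled points are replicates 2 to 4, open diamonds replicate 1, and bars the mean ± SD of replicates 2 to 4. Co-culture points lie between 10.0 and 16.8 CPM, with the young replicate 1 at 30.6 CPM, and all other points lie at or below 7.82 CPM.

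On matrix the level was 5.84, 6.37 and 3.96 CPM with senescent and 6.38, 6.26 and 6.36 CPM with young MSCs. In medium it was 5.42, 5.50 and 5.63 CPM with senescent and 4.36, 3.63 and 4.07 CPM with young MSCs. All matrix libraries were above all control libraries, and so were all senescent medium libraries and all young medium libraries. Among these 4 groups only young matrix was called against control, with a log2 fold change of 1.00 ± 0.18 (edgeR adjusted p = 0.0208). It was the 1 member called there, in a comparison with 0.649% of genes called. That CCM2L call was lost, with an adjusted p of 0.0743 to 0.105, when any of 4 libraries was left out (young matrix replicates 2 and 4, control replicates 3 and 4), and it was lost at an adjusted p of 0.509 with replicate 1 included.

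The log2 fold changes against control were 0.76 ± 0.18 for senescent matrix (edgeR adjusted p = 0.113), 0.80 ± 0.18 for senescent medium (adjusted p = 0.0712) and 0.37 ± 0.18 for young medium (adjusted p = 0.86). By edgeR 0 members were called in each of these 3 comparisons. At an unadjusted p under 0.05 there were 2 with senescent matrix, 1 with senescent medium and 0 with young medium, and DESeq2 called 1, 1 and 0 in the same order. The background was 0.3% of genes called for senescent matrix and 0.505% for senescent medium. Against control, young medium had 0% of genes called, 846 at an unadjusted p under 0.05 and 33 by DESeq2.

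Co-culture was also set against medium with the same MSC state. These groups differ in more than contact, since the medium was mixed in equal parts with endothelial medium. Co-culture libraries also had 174 to 439 CPM of stromal markers, against 64.4 to 80.9 CPM in medium. The design cannot tell these differences apart. CCM2L was higher in young co-culture than in young medium by 1.88 ± 0.19 on the log2 scale (edgeR adjusted p 8.92e-06) and higher in senescent co-culture than in senescent medium by 1.35 ± 0.19 (adjusted p = 0.000198). In the young comparison 2 members were called, CCM2L and KLF4, with 11.6% of all genes called. In the senescent comparison 1 member was called, CCM2L, with 2.1% of all genes called. Matrix against medium gave 0.63 ± 0.18 with young MSCs (adjusted p = 0.0738) and -0.04 ± 0.18 with senescent MSCs (adjusted p = 0.966).

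Senescence of the MSCs did not move CCM2L past the threshold in any mode. The senescent minus young difference was -0.09 ± 0.19 in co-culture, -0.24 ± 0.18 on matrix and 0.43 ± 0.18 in medium, all on the log2 scale, with edgeR adjusted p of 1.0, 1.0 and 0.765. By edgeR 0 members were called between senescent and young in co-culture (0.395% of genes called), on matrix (0% called, 141 genes at an unadjusted p under 0.05 and 0 by DESeq2) or in medium (0.0167% called). At an unadjusted p under 0.05 the members numbered 0, 0 and 1 in the same order, and DESeq2 called 0 in each. The test of whether this difference itself varied between modes called 0 members for medium against matrix, co-culture against matrix and co-culture against medium by edgeR and by DESeq2, with 0%, 0.0487% and 0.103% of all genes called. At an unadjusted p under 0.05 the members numbered 1, 0 and 0 in the same order. The 1 was CCM2L, at 0.67 ± 0.26 (edgeR unadjusted p = 0.0193), where 384 genes had an unadjusted p under 0.05.

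The order of CCM2L levels was young co-culture (15 ± 0.82 CPM, SD, n = 3), senescent co-culture (14.0 ± 3.53), young matrix (6.33 ± 0.07), senescent medium (5.52 ± 0.11), senescent matrix (5.39 ± 1.27), young medium (4.02 ± 0.37) and control (3.18 ± 0.50). The libraries overlapped between the co-culture groups, between senescent medium and senescent matrix, and between senescent matrix and young medium; the other neighbours did not overlap. Per kilobase of exon, CCM2L reached 5.41 ± 1.37 CPM per kb in senescent and 5.80 ± 0.32 in young co-culture, against 1.23 ± 0.19 in control. On the same scale CCM2 was at 6.32 ± 0.75 and 5.52 ± 0.10 in co-culture and 6.09 ± 0.96 in control. On that scale the paralogue lay near CCM2 in co-culture and well below it in control, a comparison of levels that was not tested. It depends on the length used, all annotated exons merged, which was 2587 bases for CCM2L and 8196 for CCM2. Transcripts in these cells may be shorter. Before division by length, CCM2 averaged 51.8 CPM in senescent and 45.2 CPM in young co-culture, above CCM2L in both.

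Stromal and endothelial transcripts both moved with the co-culture groups. COL1A1, the main fibrillar collagen of stromal cells, was at 117 to 165 CPM in senescent and 47.8 to 71.2 CPM in young co-culture, against 5.70 to 6.12 CPM in control. The 5 replicate 1 libraries with 5779 to 9980 CPM of stromal markers had 4.53 to 7.82 CPM of CCM2L, below every co-culture library. In senescent medium (7.82 CPM), young medium (5.58) and control (4.53), replicate 1 was nevertheless above replicates 2 to 4 of its own group, which reached at most 5.63, 4.36 and 3.57 CPM. The sum of the 7 epithelial markers was also higher in co-culture, at 3129 to 3588 CPM with senescent and 3835 to 4513 CPM with young MSCs, against 1970 to 2496 CPM in control. Only 3 of the 7 averaged at least 1 CPM in co-culture. Of 6 tested, 2 were called higher and 0 lower in each co-culture group. Their median log2 fold change was -0.15 with senescent and 0.06 with young MSCs. The part of stromal and epithelial transcripts in the CCM2L level was not tested. The 12 endothelial markers summed to 4098 to 4315 CPM in senescent co-culture, 3835 to 4339 in young co-culture and 1804 to 2390 in control. With libraries scaled to the endothelial markers, CCM2L was still called, at 1.37 ± 0.19 for senescent and 1.44 ± 0.19 for young co-culture against control, where the median of all genes stood at -0.81 and -0.84. That scaling also turned the calls over all genes, to 404 higher and 12437 lower with senescent MSCs, against 1032 and 396 under TMM, and to 329 higher and 12365 lower with young MSCs, against 1190 and 526 under TMM. In such bulk libraries, fewer cells of a type and less RNA per cell cannot be told apart. The antisense gene at the CCM2L locus had at most 0.0419 CPM in these libraries.

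**Figure D2:**
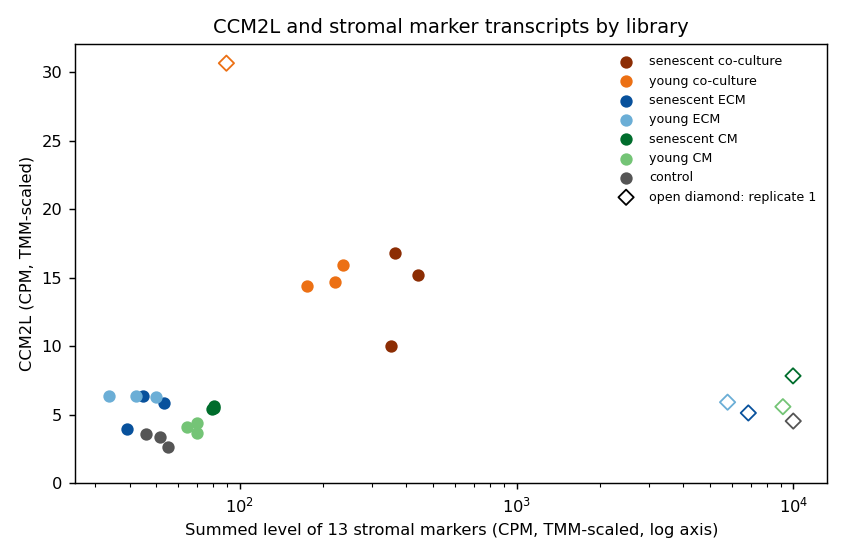
CCM2L level (vertical axis, CPM) against the summed level of 13 stromal markers (horizontal log axis, CPM), with 1 point per library and replicate 1 as open diamonds. The co-culture points of replicates 2 to 4 lie at 10.0 to 16.8 CPM of CCM2L and 174 to 439 CPM of stromal markers, and young co-culture replicate 1 lies at 30.6 and 89.4 CPM, while the 5 replicate 1 points at 5779 to 9980 CPM lie at 4.53 to 7.82 CPM.

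In replicate 1 the CCM2L level was 30.6 CPM in young co-culture, 5.12 on senescent and 5.90 on young matrix, 7.82 in senescent and 5.58 in young medium, and 4.53 in control. The young co-culture library was again the highest. Its TMM factor was 0.551, and without that factor the value was 16.9 CPM. With replicate 1 in the fit, CCM2L stayed called in young co-culture against control (log2 fold change 2.51 ± 0.36, edgeR adjusted p = 0.0289). In senescent co-culture, which has no replicate 1, it was 2.00 ± 0.37 against control (adjusted p = 0.0781), and 1.22 ± 0.28 against senescent medium (adjusted p = 0.273).

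The genes whose log2 levels followed CCM2L most closely over the 21 libraries, among 11028 searched, were SH2D3C (Pearson r 0.969), NDRG4 (0.957) and CYTH2 (0.948). SH2D3C, an adaptor protein of integrin signalling, averaged 17.4 CPM in senescent and 20.0 in young co-culture, and 4.94 CPM in control. These correlations run over group differences shared by all the libraries and are a description only.

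KLF2 lies at chr19:16324817-16327874 on the plus strand (ENSG00000127528.6), and unlike CCM2L it was highest on matrix. The level was 322, 421 and 284 CPM on senescent matrix, 488, 376 and 362 CPM on young matrix, and 305, 110 and 175 CPM in control. All young matrix libraries were above all control libraries, whereas senescent matrix overlapped control through control replicate 2. The log2 fold change against control was 0.80 ± 0.31 for senescent matrix (edgeR adjusted p = 0.553) and 1.06 ± 0.31 for young matrix (adjusted p = 0.189). In the young comparison same-numbered libraries deviated together, and with the replicate block KLF2 was called at 1.12 ± 0.23 (adjusted p = 0.0246).

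Against medium, KLF2 was higher on young matrix by 1.08 ± 0.31 (edgeR adjusted p = 0.0729) and on senescent matrix by 0.82 ± 0.31 (adjusted p = 0.183). Medium libraries had 248, 167 and 165 CPM with senescent MSCs and 250, 168 and 150 CPM with young MSCs, so every matrix library was above every medium library. By edgeR 0 members were called in matrix against medium, with 3.35% of genes called for young and 4.9% for senescent MSCs. At an unadjusted p under 0.05 there were 3 members with young and 1 with senescent MSCs, and DESeq2 called 3 and 0. In the senescent comparison the numbers paired the libraries, and with the replicate block KLF2 was called at 0.87 ± 0.23 (adjusted p = 0.0322).

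In co-culture KLF2 had 229, 328 and 248 CPM with senescent MSCs and 196, 165 and 255 CPM with young MSCs, both overlapping control. The log2 fold changes against control were 0.49 ± 0.30 (edgeR adjusted p = 0.404) and 0.10 ± 0.30 (adjusted p = 0.884). Scaled to the endothelial markers they were -0.28 (adjusted p = 0.329) and -0.69 (adjusted p = 0.0285), beside all-gene medians of -0.81 and -0.84. The mean levels ran from young matrix (409 ± 68.8 CPM, SD, n = 3) through senescent matrix (342 ± 70.7), senescent co-culture (268 ± 52.9), young co-culture (205 ± 45.4), control (197 ± 99.6) and senescent medium (193 ± 47.1) to young medium (190 ± 53.1), and each neighbouring pair overlapped. In replicate 1 KLF2 had 223 CPM in young co-culture, 170 on senescent and 130 on young matrix, 174 in senescent and 192 in young medium, and 129 in control; the high matrix level was not seen there.

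KLF4 lies at chr9:107484852-107490482 on the minus strand (ENSG00000136826.15) and was expressed at a much lower level than KLF2. In co-culture it had 4.87, 5.97 and 4.10 CPM with senescent and 4.88, 4.19 and 4.01 CPM with young MSCs. On matrix it had 4.85, 4.12 and 3.21 CPM with senescent and 5.59, 3.53 and 4.55 CPM with young MSCs. In medium it had 4.05, 2.79 and 3.22 CPM with senescent and 2.17, 2.2 and 2.93 CPM with young MSCs, and in control 4.11, 1.99 and 3.07 CPM. Control replicate 2 overlapped the co-culture and matrix libraries, while young medium lay below all of them.

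KLF4 was called once in 13 comparisons, in young co-culture against young medium (log2 fold change 0.82 ± 0.25, edgeR adjusted p = 0.0369). Leaving out any library but young medium replicate 4 ended that call, with adjusted p of 0.0615 to 0.140, and scaled to the endothelial markers the fold change was 0.08 (adjusted p = 0.737) beside an all-gene median of -0.74. With replicate 1 included it was -0.28 ± 0.63 (adjusted p = 0.859). Senescent co-culture against senescent medium gave 0.57 ± 0.24 (adjusted p = 0.356). Against control, KLF4 differed by 0.75 ± 0.24 in senescent co-culture (adjusted p = 0.0861), 0.55 ± 0.24 in young co-culture (adjusted p = 0.189) and 0.58 ± 0.26 on young matrix (adjusted p = 0.552); against young medium, young matrix gave 0.88 ± 0.26 (adjusted p = 0.0839). The library ranges of neighbouring groups overlapped throughout the order of means, from senescent co-culture (4.98 ± 0.94 CPM, SD, n = 3) to young medium (2.43 ± 0.43).

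The 5 replicate 1 libraries rich in stromal markers had more KLF4 than any library of replicates 2 to 4. They held 13.1 CPM on senescent and 11.2 on young matrix, 10.5 in senescent and 11.7 in young medium, and 14.6 CPM in control, while young co-culture replicate 1 had 1.81 CPM. KLF4 was high in the libraries where the stromal markers were high, and the part of stromal transcripts in its co-culture level was not tested.

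The genes closest to KLF2 over the 21 libraries were XKR8 (Pearson r 0.911), FOXC2 (0.900), a forkhead factor of vessel development, and PEDS1 (0.886). Those closest to KLF4 were CAMKK1 (0.938), PLEKHH3 (0.935) and SOX13 (0.932). Among the 8 genes, KLF2 and KLF4 correlated at r 0.640 over the 21 libraries, CCM2L with KLF4 at 0.700 and CCM2L with KLF2 at 0.207. KLF2 tracked CCM2 most closely (0.852), and KLF4 tracked MAP3K3 (0.860). These values share the same libraries and group structure and carry no test.

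HEG1, KRIT1, CCM2 and PDCD10, with the kinase gene MAP3K3, made up the remainder, and none was called in any of 13 comparisons by edgeR as set here. With no low-count filter, HEG1 was called in 2 comparisons and MAP3K3 in 1, and MAP3K3 was called in 1 with the replicate block. At an unadjusted p under 0.05 only MAP3K3 appeared, in 1 comparison, and DESeq2 called none of the 5. The receptor gene HEG1 (chr3:124965710-125055958, minus strand, ENSG00000173706.14) ranged from 52.9 to 170 CPM over the 21 libraries with a median of 118, and its log2 fold changes ran from -0.31 to 0.73 over the 13 comparisons. It had 98.9, 115 and 160 CPM in senescent co-culture, 170, 79.3 and 128 CPM in young co-culture, and 126, 52.9 and 118 CPM in control. Replicate 3 was low on young matrix (63.8 CPM), in young medium (57.1) and in control (52.9). Those 3 libraries had 12.3%, 12.2% and 10.3% of their counts on ribosomal protein genes, and the part of that share in the HEG1 value was not tested.

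The scaffold gene KRIT1 (chr7:92198969-92246166, minus strand, ENSG00000001631.16) ranged from 3.99 to 6.47 CPM, with log2 fold changes from -0.17 to 0.31. A read-through gene annotated on the same strand, ENSG00000285953, was at 0 in these libraries, and reads shared with it could be lost from KRIT1, so its level is uncertain. CCM2 (chr7:44999475-45076469, plus strand, ENSG00000136280.17), the adaptor that holds MEKK3, ranged from 38.6 to 67.0 CPM, with log2 fold changes from -0.11 to 0.31. It had 52.7, 57.4 and 45.2 CPM in senescent co-culture, 46.2, 44.7 and 44.8 CPM in young co-culture, and 57.5, 41.9 and 50.4 CPM in control, in groups that overlapped.

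PDCD10 (chr3:167683298-167734939, minus strand, ENSG00000114209.15), which links the complex to the kinases STK24, STK25 and STK26, ranged from 17.7 to 48.9 CPM with log2 fold changes from -0.20 to 0.25. MAP3K3 (chr17:63622415-63696303, plus strand, ENSG00000198909.8) ranged from 63.5 to 140 CPM. Its log2 fold changes ran from -0.23 to 0.53, with a smallest edgeR adjusted p of 0.0952. It had 121, 131 and 116 CPM in senescent co-culture, 140, 106 and 109 CPM in young co-culture, and 117, 67.2 and 107 CPM in control. The genes STRADA (2.86 to 6.35 CPM) and LIMD2 (9.02 to 22.2 CPM) overlap it on the opposite strand, and the strand setting of the counting is not given in the sources used here. For each of these 5 genes the ranges of every neighbouring pair of groups overlapped in the order of means.

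Scaled to the endothelial markers, 4 of the 5 were called lower in co-culture against control. CCM2 was at -0.71 with senescent and -0.94 with young MSCs, PDCD10 at -0.87 and -0.82, KRIT1 at -0.59 and -0.59, and MAP3K3 at -0.40 and -0.50 on the log2 scale. The all-gene medians were -0.81 and -0.84, with 12841 and 12694 of 17729 genes tested called, 12437 and 12365 of them lower. KRIT1 and MAP3K3 stood above both medians, CCM2 above the first and below the second, and PDCD10 below the first and above the second.

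**Figure D3:**
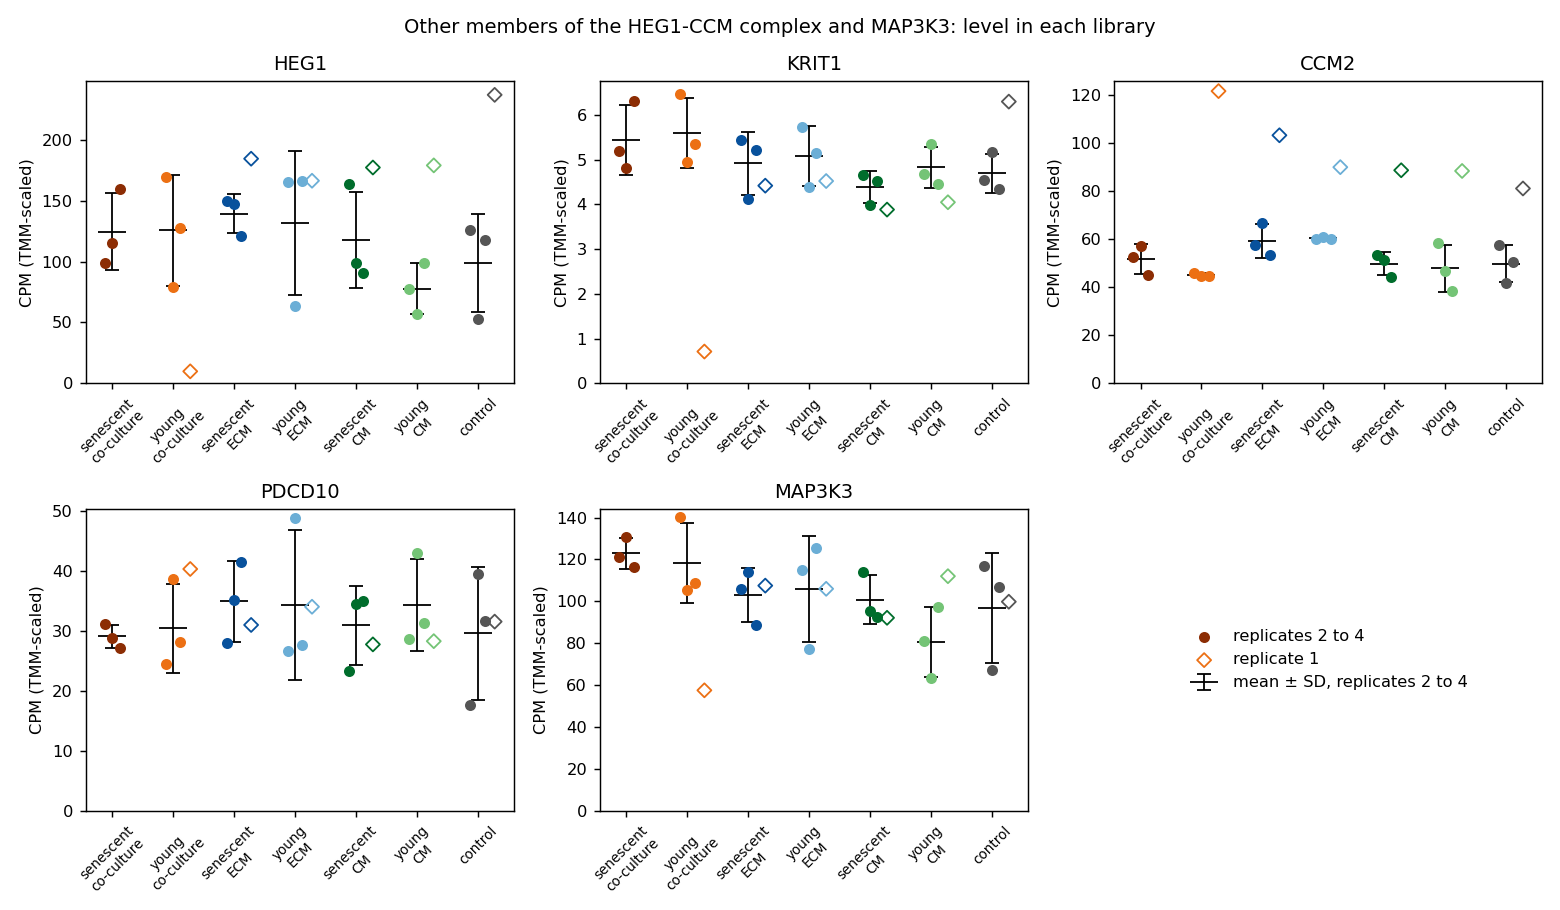
Levels of HEG1, KRIT1, CCM2, PDCD10 and MAP3K3 by library, in CPM after TMM scaling on the vertical axes, with groups on the horizontal axes. Filled points are replicates 2 to 4, open diamonds replicate 1 and bars the mean ± SD of replicates 2 to 4. Single libraries overlap between neighbouring groups in the order of means, and the young co-culture replicate 1 lies low for KRIT1 and HEG1 and high for CCM2.

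In replicate 1 the co-culture library held 0.71 CPM of KRIT1 and 9.82 CPM of HEG1, both below all other libraries, and 122 CPM of CCM2, above all others. CCM2 was also higher in the other 5 replicate 1 libraries, at 81.2 to 103 CPM, than in any library of replicates 2 to 4. PDCD10 lay at 27.8 to 40.4 CPM and MAP3K3 at 57.6 to 112 CPM over the 6 libraries.

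Per kilobase of merged exon, KLF2 had the highest level of the 8 genes in control, at 97.5 ± 49.3 CPM per kb, followed by MAP3K3 (15.9 ± 4.3), HEG1 (9.97 ± 4.04), PDCD10 (9.07 ± 3.39), CCM2 (6.09 ± 0.96), CCM2L (1.23 ± 0.19), KLF4 (0.835 ± 0.290) and KRIT1 (0.756 ± 0.071, SD, n = 3 each). This order depends on the exon lengths used, which may exceed those of the transcripts present.

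**Figure D4:**
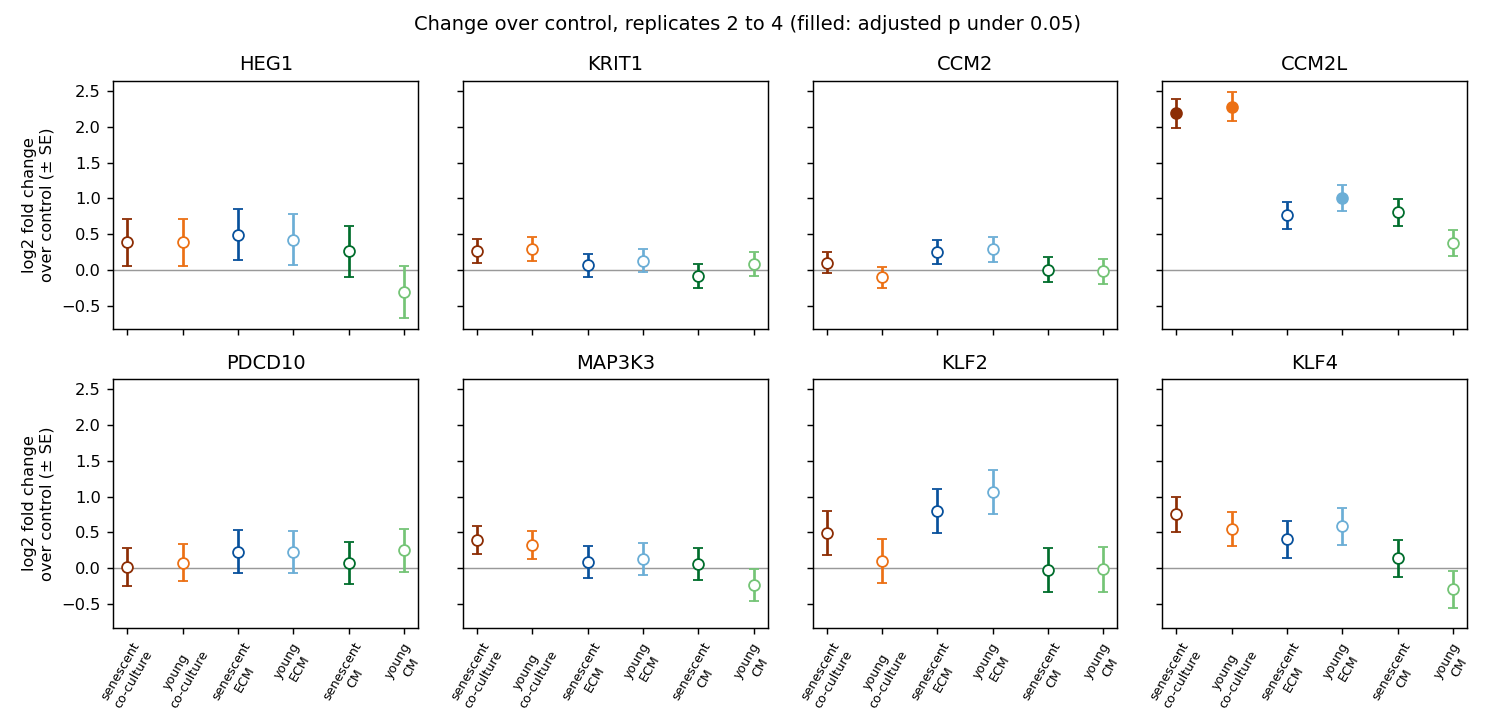
Log2 fold change against control for the 8 genes in the 6 exposed groups, with bars of ± 1 SE from edgeR and filled points where the adjusted p was under 0.05. Filled points are CCM2L in senescent co-culture (2.19), young co-culture (2.28) and on young matrix (1.00).

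Partners of the complex were called in co-culture at a share near that of all genes. Of 21 partner genes tested, 2 were higher and 0 lower than control with senescent MSCs and likewise with young MSCs, at median log2 fold changes of 0.14 and 0.08, against 0.02 and 0.01 over all genes. The share called over all genes was 8.05% with senescent and 9.68% with young MSCs, and with young MSCs 1 to 3 partners were called when a library was left out (1 without control replicate 4 or young co-culture replicate 4). Both were CDH5, the adherens junction cadherin of endothelium, and RASIP1, a Rap1 effector that binds HEG1. CDH5 averaged 704 ± 58.5 CPM in senescent and 701 ± 111 CPM in young co-culture, against 255 ± 58.2 CPM in control (SD, n = 3; edgeR adjusted p = 0.000292 and 0.000398). RASIP1 averaged 17.0 ± 3.56 and 15.8 ± 1.69 CPM in co-culture, against 8.06 ± 2.22 CPM in control (adjusted p = 0.00648 and 0.0122). CDH5 is itself among the 12 endothelial markers whose sum moved with co-culture. Scaled to those markers, 19 of the 21 partners were called with senescent and 20 with young MSCs, beside the all-gene medians of -0.81 and -0.84. Under that scaling 12841 of 17729 genes tested were called with senescent and 12694 with young MSCs, of which 12437 and 12365 were lower. With replicate 1 in the fit, 0 genes of each pathway list were called in co-culture against control, where over all genes 30 were called with senescent and 45 with young MSCs.

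In young co-culture against young medium, 3 partners were higher and 1 lower, where 11.6% of all genes were called. The number called was 1 to 8 when a library was left out: 8 without young medium replicate 4, 2 without young medium replicate 2, and 1 without young medium replicate 3, young co-culture replicate 2 or young co-culture replicate 4. The one lower was ITGB1BP1, the integrin-binding partner of KRIT1, at 65.8 ± 10.6 CPM against 102 ± 20.4 CPM (edgeR adjusted p = 0.0427). On senescent matrix CDH5 was lower than in senescent medium, at 246 ± 39.9 CPM against 467 ± 70.1 CPM (adjusted p = 0.0313). It was the 1 partner of 21 called there, where 4.9% of all genes were called. With any of the 6 libraries left out, 0 partners were called.

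Of 10 genes of the MEKK3, MEK5 and ERK5 cascade and its p38 branch, 2 were higher and 0 lower in senescent co-culture, and 2 were higher and 1 lower in young co-culture, against control, where 8.05% and 9.68% of all genes were called. In young co-culture the number called was 1 when any of the 3 co-culture libraries was left out, and 5 or 2 when the control library left out was replicate 2 or 4. MEF2C, the MEF2 factor best known in endothelium, averaged 36.0 ± 2.81 CPM in senescent and 36.2 ± 1.78 CPM in young co-culture, against 15.6 ± 2.19 CPM in control (edgeR adjusted p = 0.000172 and 0.000236). It was higher than in medium as well, by 0.88 ± 0.13 with senescent MSCs (medium 19.6 ± 1.28 CPM, adjusted p = 0.000449) and by 0.98 ± 0.13 with young MSCs (medium 18.1 ± 2.01 CPM, adjusted p = 0.000129), on the log2 scale. MAP2K6, a p38 activator, averaged 17.0 ± 1.35 and 12.2 ± 1.15 CPM in co-culture, against 7.15 ± 2.17 CPM in control (adjusted p = 0.00215 and 0.0279). MAP2K3, the other p38 activator, was lower in young co-culture, at 46.0 ± 4.47 CPM against 85.5 ± 25.4 CPM in control (adjusted p = 0.0196).

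Genes that KLF2 and KLF4 are known to raise in endothelial cells were followed as a list of 18. On young matrix 3 of the 13 tested were higher than control and 0 lower, with a median log2 fold change of 0.68, and 1 was higher on senescent matrix, with a median of 0.50, against 0.00 and -0.01 over all genes. Over all genes 0.649% were called on young and 0.3% on senescent matrix. Epithelial markers moved with the same groups: the 7 markers, of which 3 or 4 averaged at least 1 CPM, summed to 1172 to 1208 CPM on senescent and 1027 to 1319 CPM on young matrix, 4250 to 5292 CPM in senescent and 3383 to 4658 CPM in young medium, and 1970 to 2496 CPM in control, with CDH1 at 0 in every one of those libraries. KRT7, an epithelial keratin, was called lower on senescent (565 ± 22.7 CPM) and young matrix (517 ± 76.0) and higher in senescent medium (2898 ± 454) than in control (1284 ± 191; edgeR adjusted p = 0.00821, 0.00354 and 0.0066). KRT7, KRT8 and KRT18 were called lower on matrix than in medium with either MSC state, and the part of these markers in the matrix and medium results was not tested. CCN3, a matricellular inhibitor of inflammation, averaged 20.0 ± 3.55 CPM on senescent and 19.0 ± 2.87 CPM on young matrix, against 5.36 ± 0.74 CPM in control (edgeR adjusted p = 0.00124 and 0.000877). PTGDS, a prostaglandin D synthase, was at 0.998 ± 0.417 CPM on young matrix, against 0.197 ± 0.043 CPM in control (adjusted p = 0.0251). KLF6 averaged 152 ± 19.6 CPM on young matrix, against 95.6 ± 4.07 CPM in control (adjusted p = 0.0257), a call that was lost without any library but young matrix replicate 3. On young matrix, where the numbers paired the libraries, 5 of this list were called with the replicate block, and 1 without control replicate 3, control replicate 4 or young matrix replicate 4. With replicate 1 in the fit, 0 were called on either matrix against control, where over all genes 1 was called on young and 0 on senescent matrix. With so few calls, that fit says little about this list.

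Matrix against medium called 5 higher and 0 lower of 13 with young MSCs, and 5 higher and 2 lower with senescent MSCs, at medians of 0.30 and 0.31. Over all genes 3.35% were called with young and 4.9% with senescent MSCs, at medians of -0.03 and -0.01. NOS3, the endothelial nitric oxide synthase, averaged 1378 ± 444 CPM on senescent matrix and 345 ± 164 CPM in senescent medium (edgeR adjusted p = 0.00622). With young MSCs NOS3 averaged 1413 ± 458 CPM on matrix and 248.7 ± 58.5 CPM in medium (adjusted p = 0.00233). THBD, the anticoagulant receptor thrombomodulin, averaged 688 ± 106 CPM on senescent matrix and 149 ± 67.8 CPM in senescent medium (adjusted p = 0.0025), and 765 ± 266 CPM on young matrix and 144 ± 18.1 CPM in young medium (adjusted p = 0.00233). Neither NOS3 nor THBD was called on either matrix against control. The 2 called lower on senescent matrix than in senescent medium were AQP1 (log2 fold change -1.47 ± 0.22, edgeR adjusted p = 0.000767) and ASS1 (-0.95 ± 0.23, adjusted p = 0.0234).

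In co-culture 14 of the 18 were tested, and 7 were higher and 1 lower than control with senescent MSCs, 7 higher and 2 lower with young MSCs. Over all genes 8.05% were called with senescent and 9.68% with young MSCs. With young MSCs 5 were called without co-culture replicate 2 or 4. ASS1, which recycles citrulline to arginine, averaged 38.3 ± 6.87 CPM in senescent and 57.0 ± 8.82 CPM in young co-culture, against 15 ± 2.52 CPM in control (edgeR adjusted p = 0.000765 and 0.000123). Large changes were also seen in genes of low level, CYP1B1, ADAMTS4 and ADAMTS5. With young MSCs the log2 fold change was 2.49 for ADAMTS4, 1.97 for ASS1, 1.86 for CYP1B1 and 1.75 for ADAMTS5. CYP1B1 averaged 3.86 ± 1.12 and 1.08 ± 0.21 CPM in co-culture, against 0.305 ± 0.023 CPM in control. In the 5 stroma-rich replicate 1 libraries it was at 20.0 to 109 CPM, and ADAMTS4 and ADAMTS5 were at 8.67 to 21.2 and 2.24 to 5.77 CPM there, far above their maxima of 0.816 and 0.796 CPM in replicates 2 to 4.

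CYP1B1 and ADAMTS5 were the 2 genes of this list called between senescent and young co-culture, where 0.395% of all genes were called. CYP1B1 was higher in senescent co-culture by 1.85 ± 0.25 (edgeR adjusted p = 0.00734) and ADAMTS5 by 2.41 ± 0.30 (adjusted p = 0.00455) on the log2 scale. The stromal marker sum was higher in the same libraries, and its part in these differences was not tested.

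Genes that KLF2 and KLF4 are known to lower, a list of 14 with 11 tested, gave 1 call on each matrix and 7 in each co-culture group against control. Over all genes 0.3% were called on senescent and 0.649% on young matrix. On matrix 1 was called lower and 0 higher than control with either MSC state, EDN1, the vasoconstrictor peptide endothelin-1. It averaged 68.6 ± 4.29 CPM on senescent and 58.1 ± 9.39 CPM on young matrix, against 114 ± 6.26 CPM in control (edgeR adjusted p = 0.0402 and 0.00532). On senescent matrix that call was lost when any of the 6 libraries was left out, and on young matrix 2 genes of the list were called with the replicate block. In medium EDN1 was called higher with senescent MSCs, at 223 ± 20.9 CPM against 114 ± 6.26 CPM in control (adjusted p = 0.00599). Over all genes 0.505% were called there. Matrix against medium called 5 lower and 0 higher with senescent and 3 lower and 0 higher with young MSCs, at medians of -0.37 and -0.38. Both included EDN1 and the chemokine gene CCL2. Over all genes 4.9% were called with senescent and 3.35% with young MSCs. With senescent MSCs, 2 of this list were called without senescent matrix replicate 4 and 3 without its replicate 3. Under endothelial scaling 2 were called, where 1947 of 18015 genes were called, 1768 higher and 179 lower. With replicate 1 in the fit, 0 were called with either MSC state. Over all genes that fit called 122 with senescent and 12 with young MSCs.

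In co-culture 7 of the 11 were higher than control and 0 lower with either MSC state, at medians of 0.92 and 0.94. Over all genes 8.05% were called with senescent and 9.68% with young MSCs. EDN1 averaged 267 ± 12.8 CPM in senescent and 322 ± 11.7 CPM in young co-culture (edgeR adjusted p 5.74e-05 and 3.06e-05 against control). KDR, the main VEGF receptor, averaged 18.9 ± 2.87 and 22.9 ± 4.76 CPM, against 8.29 ± 1.96 CPM in control (adjusted p = 0.00303 and 0.000889). CXCL8, a neutrophil chemokine, was called with senescent MSCs, at 40.7 ± 13.9 CPM against 9.07 ± 3.95 CPM in control (adjusted p = 0.00674). Under endothelial scaling 4 of this list were called with young MSCs, where 12694 of 17729 genes tested were called, 329 higher and 12365 lower. Under TMM, genes of both the raised and the lowered list were thus higher in co-culture.

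Of 15 other KLF genes 10 were tested against control, and 3 were higher and 0 lower in each co-culture group, where 8.05% of all genes were called with senescent and 9.68% with young MSCs. With senescent MSCs 1 was called without control replicate 4 or co-culture replicates 2 or 3. With young MSCs 1 was called without control replicate 4 or co-culture replicates 2 or 4. They were KLF3, KLF6 and KLF10, and KLF3, a transcriptional repressor, averaged 62.7 ± 8.08 CPM in senescent and 70.3 ± 9.34 CPM in young co-culture, against 37.5 ± 4.41 CPM in control (edgeR adjusted p = 0.00752 and 0.00267). KLF6 was also called on young matrix, as given above. Of 13 immediate early genes tested, 7 were higher and 1 lower in each co-culture group against control. FOS averaged 53.6 ± 37.4 and 45.5 ± 20.6 CPM in co-culture, against 2.40 ± 0.18 CPM in control (adjusted p = 0.000226 and 0.000399), and EGR1 15.6 ± 4.60 and 12.8 ± 1.97 CPM, against 1.74 ± 0.78 CPM (adjusted p 6.84e-05 and 0.000156). In the 5 stroma-rich replicate 1 libraries EGR1 was at 14.2 to 57.6 CPM and FOS at 1.33 to 9.27 CPM. The part of stromal transcripts in their co-culture levels was not tested. On young matrix, where 0.649% of all genes were called, EGR1 was the 1 gene of this list called. It averaged 6.17 ± 1.68 CPM on young matrix, against 1.74 ± 0.78 CPM in control (adjusted p = 0.0165). There 3 genes of this list were called with the replicate block, and 0 without young matrix replicate 2, control replicate 3 or control replicate 4.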

How the data were processed

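The deposited table holds raw read counts per gene for 27 libraries. The submitters' processing notes name HISAT2 2.2.1, featureCounts 2.0.1 and the GRCh38 build. Neither strand setting nor annotation release is given in the sources used here. Of 60648 entries, 44 pseudoautosomal copies were left out. Within each group, no pair of libraries agreed within sampling noise.

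Counts of replicates 2 to 4 were tested with edgeR 4.0.16 (filterByExpr with a minimum count of 10, TMM, glmQLFTest, Benjamini-Hochberg over all genes, threshold 0.05, R 4.3.3) in 3 fits: control, ECM and CM (15 libraries, 18015 genes), control and co-culture (9 libraries, 17729 genes), and all 7 groups for co-culture against CM and for co-culture interactions (21 libraries, 18492 genes). The procedure was run on simulated counts drawn without replicate pairing or stromal admixture, so that run does not cover these features of the libraries. Positions and exon lengths, of all annotated exons of a gene merged, came from GENCODE 29. Promoters came from RefSeq.

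The 8 members and the gene lists were chosen with earlier results of these data known. From each pathway list at most 4 called genes per comparison were eligible to be named, by absolute log2 fold change. AQP1 and ASS1 on senescent matrix against senescent medium were named besides, as the 2 called lower. Genes like CCM2L, KLF2 or KLF4 were the 3 with the highest Pearson r of log2(CPM + 0.5). Alternatives were replicate 1 included, the replicate number as a block, DESeq2 1.42.0, other size factors, no filter, endothelial marker scaling, 1 fit of all groups, and leaving out each library. Every same-numbered pair of libraries correlated over 0.1 across 12491 genes in 5 of 13 comparisons: young ECM against control, young CM against control, senescent against young CM, senescent ECM against senescent CM, and young co-culture against control. Of the 6 libraries of each, 6, 6, 2, 6 and 5 correlated best with their own number, in that order. Pairing by number was thus weak in senescent against young CM, where the lowest correlation was 0.109.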

Additional observations from a re-analysis of the deposited data

Results flagged for a closer look

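Among 48 combinations of gene and group with 4 libraries, 11 had 1 library far from the others of its group, and 8 of the 11 were replicate 1. Chance flags about 1 in 20 such combinations. CCM2L in young co-culture was 30.6 CPM in replicate 1, against 14.4 to 15.9 CPM in the other 3, and in senescent medium 7.82 CPM in replicate 1, against 5.42 to 5.63 CPM. CCM2 was 122 CPM in replicate 1 of young co-culture, against 44.7 to 46.2 CPM, and 90.1 CPM in replicate 1 of young matrix, against 60.02 to 61.1 CPM.

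KLF4 was high in replicate 1 of 4 groups: 13.1 CPM on senescent matrix against 3.21 to 4.85 CPM, 10.5 CPM in senescent medium against 2.79 to 4.05 CPM, 11.7 CPM in young medium against 2.17 to 2.93 CPM, and 14.6 CPM in control against 1.99 to 4.11 CPM. The other 3 came from replicates 2 and 3. HEG1 was 63.8 CPM in replicate 3 of young matrix, where the others were all at 166 CPM. In replicate 2 of senescent medium, MAP3K3 was 114 CPM against 92.2 to 95.5 CPM, and KLF2 was 248 CPM against 165 to 174 CPM.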

How the results depend on the processing

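The CCM2L calls in co-culture against control and against medium held under the replicate block, DESeq2, other size factors, no filter, endothelial marker scaling and each left-out library; with replicate 1 included the senescent ones were lost. The number of members called was otherwise set by the processing, and the cause was not tested. Against control, young matrix had 1 member called, 0 with all replicates, 2 with the replicate block, DESeq2 or no filter, and 0 to 2 with a library left out. Senescent matrix had 0, but 1 with DESeq2 or no filter, and 0 to 1 with a library left out. Senescent medium had 0, but 1 with the replicate block, DESeq2 or a single fit. Young co-culture had 1, but 6 under endothelial scaling, and 1 to 2 with a library left out (2 without control replicate 2). Senescent co-culture had 1, but 0 with all replicates, 2 with DESeq2 or no filter, 5 under endothelial scaling, and 1 to 3 with a library left out (3 without control replicate 2). Young matrix against young medium had 0, but 3 with the block, DESeq2, no filter, endothelial scaling or a single fit, and 0 to 4 with a library left out (4 without young matrix replicate 3). Senescent matrix against senescent medium had 0, but 1 with the block or no filter and 2 under endothelial scaling. Young co-culture against young medium had 2, but 1 with all replicates, 3 with the replicate block (with MAP3K3), 4 with no filter, 5 under endothelial scaling, and 1 to 3 with a library left out. Senescent co-culture against senescent medium had 1, but 0 with all replicates.

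Over all genes, calls against control moved by over 1.5 times on young matrix (117; 1 with all replicates, 321 with the replicate block, 346 with DESeq2, 363 with no filter), senescent matrix (54; 0, 200, 234 and 290 in the same order) and senescent medium (91; 0, 230, 277 and 284). In co-culture against control they moved so with all replicates, to 30 with senescent MSCs from 1428 and to 45 with young MSCs from 1716. Under endothelial scaling they moved to 12841 and 12694 in the same order. With a library left out the all-gene counts ran 782 to 2148 for senescent and 885 to 2339 for young co-culture, 12 to 36 for senescent and 27 to 131 for young matrix, and 22 to 74 for senescent medium, all against control, and 774 to 4198 for young co-culture and 237 to 2140 for young matrix against young medium. In the 5 comparisons whose numbers paired the libraries, the replicate block changed no call of a member beyond KLF2 in the 2 comparisons given above.

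Directions turned in these log2 fold changes. CCM2L in senescent matrix against medium was 0.29 under endothelial scaling and -0.20 to 0.14 with a library left out, and in senescent against young co-culture -0.25 to 0.087 with a library left out. KLF2 against control under endothelial scaling was -0.69 in young and -0.28 in senescent co-culture, and -0.18 to 0.57 in young co-culture with a library left out. KLF4 against control was -0.65 with all replicates and -0.26 under endothelial scaling in young co-culture, and -0.25 and -0.035 in senescent co-culture. With all replicates KLF4 was -0.28 in young and -0.039 in senescent co-culture against medium.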
